A study of Homo sapiens with 6 samples.

Results

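The RNA of 10 genes of TGF-beta and activin signalling was followed in IGR37, an established human melanoma cell line. They were chosen by symbol as ligands (TGFB1, TGFB2, INHBA), receptors (TGFBR1, TGFBR2), latency proteins (LTBP2, LTBP3) and SMAD2/3 targets (PMEPA1, SKIL, TGFBI). The choice was made with earlier results of these data known. All 10 had a row among the 12558 gene rows of the authors' deposited table. The 6 libraries fell into 2 groups: 3 from cells exposed to doxycycline at 20 ng/ml for 24 h, and 3 from cells without doxycycline (0 ng/ml). Every cell, controls included, carried a piggyBac-integrated, doxycycline-inducible CTNNB1 with an SV40 nuclear localisation signal at its N-terminus, in cells selected with G418. The labels do not say whether the line was 1 clone or a mixed population, nor whether replicates were separate cultures, so the p-values reflect a spread between libraries that may be technical only.

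The authors' deposited table holds 1 comparison, each gene with its log2 fold change and edgeR F test, but without values or depths of single libraries. Its header does not name the groups or their order. "Higher" and "lower" therefore mean the positive and negative sign as deposited, that is, higher or lower in the group on top of the ratio, called the numerator group. CTNNB1, the induced gene, was 3.89-fold higher per the authors' deposited table (edgeR FDR 1.24e-08, the Benjamini-Hochberg adjusted p over all rows). That is the sign a doxycycline over no-doxycycline ratio would give, but the table does not state that this is the ratio. Changes were widespread: 50.9% of gene rows of that table passed an FDR of 0.05, 26.4% lower and 24.5% higher. The median of the 59 spike-in RNAs was 0.57 on the log2 scale, and relative to them every gene value is lower by that amount.

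TGF-beta and activin are secreted dimers that bind a type II receptor (TGFBR2 for TGF-beta), which then activates a type I receptor (TGFBR1 for TGF-beta). The type I receptor phosphorylates SMAD2 and SMAD3, which enter the nucleus with SMAD4 and bind regulatory DNA, often beside AP-1 factors. TGF-beta is stored outside the cell in a latent complex held by latent TGF-beta binding proteins. In melanocytes the pathway is known to restrain pigment genes, and in melanoma it is associated with an invasive, poorly pigmented state.

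Because these genes share a direction, the DNA before their starts was searched for the letters of factors of this pathway and of beta-catenin and MITF. The 3 upstream stretches shown are those of TGFB2 and INHBA, the ligand genes with the matches described next, and of TGFBI, the gene with the largest fold, where no searched motif was found. Each is 250 bases before a RefSeq start (GRCh38.p14), read in the gene's direction, with matches in capitals.
TGFB2 (chr1:218345086-218345335, plus strand): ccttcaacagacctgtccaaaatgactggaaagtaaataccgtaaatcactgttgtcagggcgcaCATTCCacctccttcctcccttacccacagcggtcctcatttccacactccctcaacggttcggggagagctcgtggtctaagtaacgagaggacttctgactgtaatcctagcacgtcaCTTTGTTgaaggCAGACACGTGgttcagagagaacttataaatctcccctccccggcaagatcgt
INHBA (chr7:41703091-41703340, minus strand): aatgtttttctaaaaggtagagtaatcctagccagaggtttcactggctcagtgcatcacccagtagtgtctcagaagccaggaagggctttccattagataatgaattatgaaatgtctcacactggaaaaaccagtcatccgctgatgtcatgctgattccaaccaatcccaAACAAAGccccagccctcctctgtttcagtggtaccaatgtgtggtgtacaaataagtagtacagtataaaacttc
TGFBI (chr5:136028738-136028987, plus strand): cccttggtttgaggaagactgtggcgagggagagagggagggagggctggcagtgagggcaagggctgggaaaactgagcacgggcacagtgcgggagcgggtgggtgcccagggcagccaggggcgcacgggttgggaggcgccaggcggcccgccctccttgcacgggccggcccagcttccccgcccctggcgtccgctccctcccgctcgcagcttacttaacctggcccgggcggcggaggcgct

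The TGFB2 stretch held CAGACA, the SMAD-binding letters, 53 bases before the start, sharing bases with the E-box CACGTG at 49 bases before it. It also held CTTTGTT, a TCF/LEF and SOX motif, 65 bases before the start, and the TEAD letters GGAATG on the opposite strand. The stretch overlaps an annotated exon of the antisense gene TGFB2-AS1. The INHBA stretch held CTTTGTT on the opposite strand. Guanine and cytosine made up 50.4% of the TGFB2 stretch, 42.8% of the INHBA stretch and 72.8% of the TGFBI stretch. In the RefSeq windows of 300 bases (250 before to 50 after each start), all 10 genes were matched by symbol, with 22 windows between them because several genes have more than 1 start. CAGACA was found for 4 of the 10 genes (TGFB2, INHBA, TGFBR1 and PMEPA1) and in 16.9% of all windows, both strands searched. CTTTGTT was found for TGFB2 and INHBA, and in 5.2% of all windows. The AP-1 letters TGACTCA were found for TGFBR2 (4.95% of all windows), the MITF M-box TCATGTG for INHBA (2.92%), CACGTG for TGFB2 (7.26%), and GGAATG for TGFB2 and TGFBR1 (14.0%). CTTTGAT, the other TCF/LEF motif, was found for none of the 10 (2.62% of all windows). A gene with several windows has more chances of a match than 1 window has, so the gene counts and the window shares are on different bases.

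All 10 genes were lower, and all 10 passed an FDR of 0.05 in the authors' deposited table, where 26.4% of gene rows were called lower. Because the 10 were chosen with earlier results of these data known, their shared direction cannot be taken as that of the pathway. Their median log2 fold change was -2.17, about 4.49-fold lower, against a median of -0.01 over all gene rows. Centring on the spike-ins makes every negative value more negative, so it is no check of these calls. All 10 were then called lower, with a median log2 value of -2.73, where 52.3% of gene rows were called lower. The log2 fold changes ran between -5.69 for TGFBI and -0.90 for TGFBR1. Less RNA per cell and fewer cells of one kind cannot be told apart in such bulk libraries.

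With no value per library, the level in each group can only be approximated from the average CPM (read counts scaled to library size) and the fold, taking the groups as equal in size. These implied levels carry no replicate spread and are least certain for genes of a few CPM. The libraries count the 3' end of polyadenylated RNA.

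**Figure D1:**
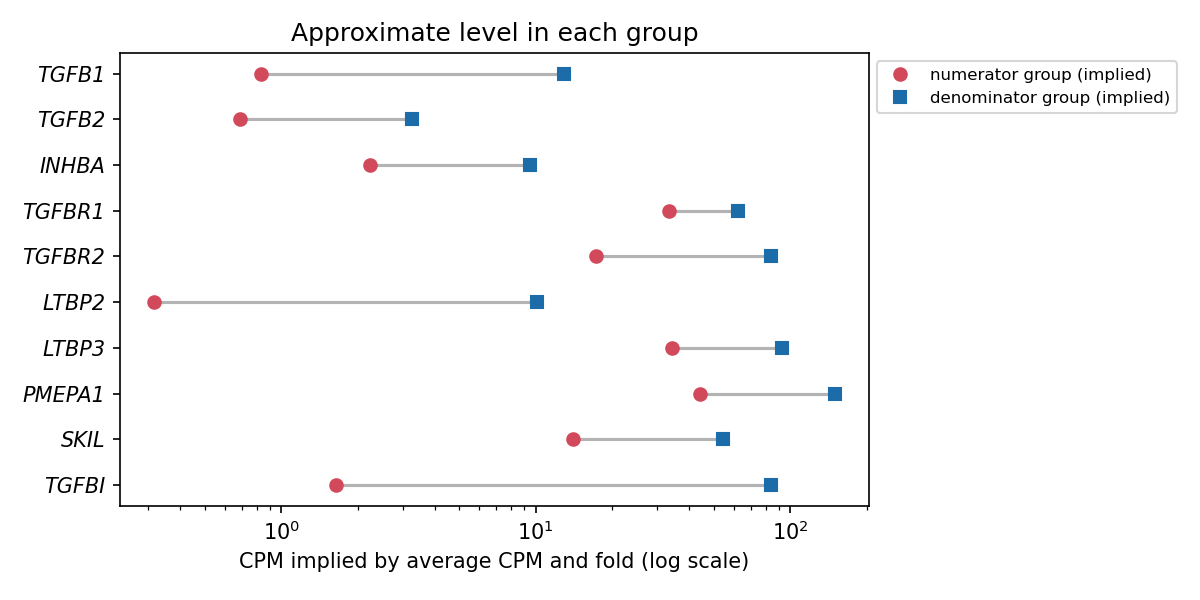
Level implied by the authors' deposited average CPM and fold change for each gene, in CPM on a log axis; circles are the numerator group and squares the denominator group. In every gene the circle lies left of the square, with the widest gaps for TGFBI (1.64 against 84.4 CPM) and LTBP2 (0.316 against 10.1 CPM).

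All 3 ligand genes were lower. TGFB1, the most widely made TGF-beta isoform, had implied levels of 0.832 CPM in the numerator group and 12.9 CPM in the denominator group. It was 15.5-fold lower per the authors' deposited table (edgeR FDR 3.51e-06, log2 -3.96). A standard error derived from the F statistic gave this log2 value a 95% interval of -4.89 to -3.02. TGFB1 spans 41301587 to 41353922 on chromosome 19 (hg38, minus strand).

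TGFB2, a further isoform of the ligand, had implied levels of 0.686 CPM in the numerator group and 3.25 CPM in the denominator group. It was 4.74-fold lower per the authors' deposited table (edgeR FDR 0.0202, log2 -2.24), the weakest call of the 10, with a derived interval of -3.83 to -0.66. With 4 denominator degrees of freedom, those that 6 libraries in 2 groups leave, its FDR was 0.0883. The gene spans 218345336 to 218444619 on the plus strand of chromosome 1. TGFB2-AS1, an antisense transcript that shares exonic sequence with it on the other strand, was also lower with an edgeR FDR of 0.00137 and an average of 1.52 CPM in the authors' deposited table, with no reads in 1 group as judged by its degrees of freedom. Whether counting used strand is not given in the sources used here, so reads of this pair may not be separable.

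INHBA encodes the beta A subunit of activin A and inhibin A. Its implied levels were 2.23 CPM in the numerator group and 9.49 CPM in the denominator group. It was 4.25-fold lower per the authors' deposited table (edgeR FDR 0.00036, log2 -2.09), with a derived interval of -2.90 to -1.27. INHBA is on the minus strand of chromosome 7 at 41667168 to 41705834, so the upstream stretch printed for it lies before an internal start and overlapped no annotated exon. The derived interval of INHBA lies within that of TGFB2, whereas that of TGFB1 lies wholly below that of INHBA at 14.03 degrees of freedom. The gap is small (-3.02 against -2.90), and the wider intervals of 4 degrees of freedom were not derived.

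Of the receptors, the type II gene differed more. TGFBR2, the ligand-binding kinase, had implied levels of 17.3 CPM in the numerator group and 84.0 CPM in the denominator group. It was 4.86-fold lower per the authors' deposited table (edgeR FDR 5.15e-07, log2 -2.28), with a derived interval of -2.73 to -1.83. TGFBR1, the signalling type I kinase, had implied levels of 33.2 CPM in the numerator group and 62.2 CPM in the denominator group. Its fold was the smallest of the 10 at 1.87-fold lower per the authors' deposited table (edgeR FDR 0.00174, log2 -0.90), with a derived interval of -1.33 to -0.47. The intervals of the receptor pair do not overlap. TGFBR2 spans 30606601 to 30694142 on chromosome 3 and TGFBR1 99104038 to 99154192 on chromosome 9, both on the plus strand.

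The latency genes were unequal. LTBP2, a matrix protein of the latent TGF-beta binding protein family that does not itself hold latent TGF-beta, had implied levels of 0.316 CPM in the numerator group and 10.1 CPM in the denominator group. It was 32.1-fold lower per the authors' deposited table (edgeR FDR 3.74e-06, log2 -5.00), with a derived interval of -6.19 to -3.81, the widest of the 3 genes with the largest folds. LTBP3, which does bind latent TGF-beta, had implied levels of 34.4 CPM in the numerator group and 92.5 CPM in the denominator group. It was 2.69-fold lower per the authors' deposited table (edgeR FDR 1.64e-05, log2 -1.42), with a derived interval of -1.82 to -1.03. LTBP2 is on the minus strand of chromosome 14 at 74498183 to 74612378, and LTBP3 on the minus strand of chromosome 11 at 65538559 to 65558930.

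The SMAD targets were led by TGFBI, a secreted matrix protein named for its induction by TGF-beta. Its implied levels were 1.64 CPM in the numerator group and 84.4 CPM in the denominator group, so the numerator group held about 1.94% of the denominator level. Its log2 value of -5.69 in the authors' deposited table (edgeR FDR 7.79e-10) had a derived interval of -6.29 to -5.09. TGFBI spans 136028988 to 136063818 on chromosome 5 (plus strand).

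Both remaining targets are feedback inhibitors that SMADs induce. PMEPA1, a membrane protein that sequesters SMAD2 and SMAD3, had implied levels of 44.3 CPM in the numerator group and 149.7 CPM in the denominator group. It was 3.38-fold lower per the authors' deposited table (edgeR FDR 6.66e-07, log2 -1.76), with a derived interval of -2.11 to -1.40. SKIL, a nuclear corepressor of SMAD complexes, had implied levels of 14.0 CPM in the numerator group and 54.5 CPM in the denominator group. It was 3.90-fold lower per the authors' deposited table (edgeR FDR 2.33e-07, log2 -1.96), with a derived interval of -2.32 to -1.61. The intervals of PMEPA1 and SKIL overlap, and both lie wholly above that of TGFBI. PMEPA1 is on the minus strand of chromosome 20 at 57648392 to 57711536 and SKIL at 170357342 to 170396835 on chromosome 3 (plus strand).

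**Figure D2:**
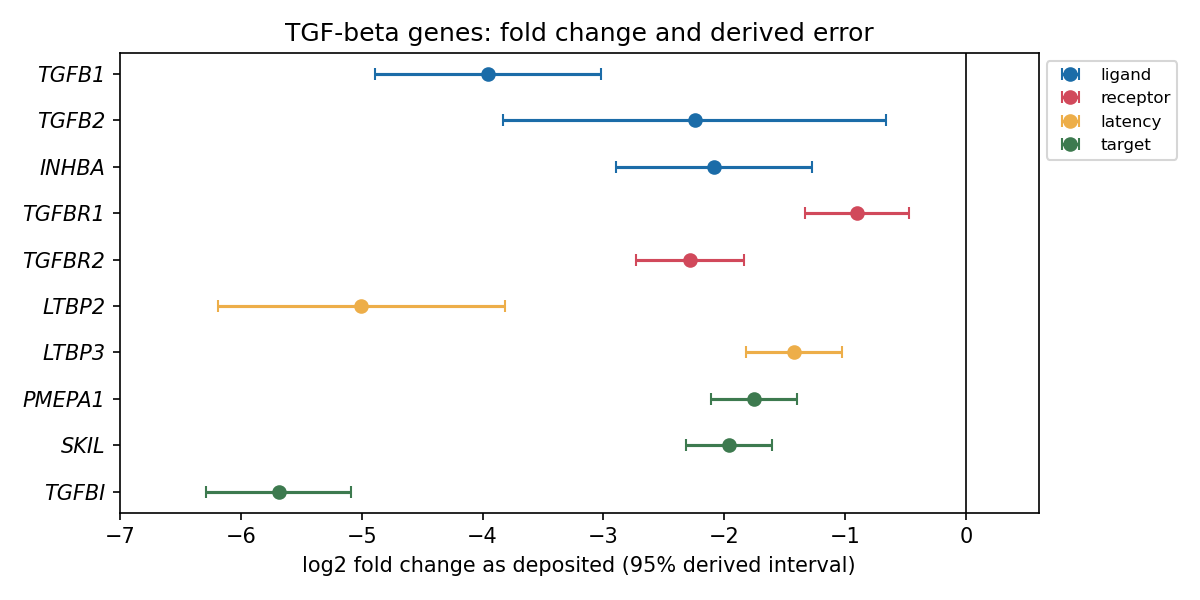
Log2 fold change of each gene as deposited, with the 95% interval derived from its F statistic, coloured by role. All 10 intervals lie below 0, from TGFBI at -5.69 to TGFBR1 at -0.90, and the interval of TGFB2 is the widest.

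Among themselves the 10 values spread widely, with an SD of 1.59 on the log2 scale. The interval of TGFBI lay wholly below those of 8 other genes, overlapping only that of LTBP2. The intervals of LTBP2 and TGFB1 overlapped each other, and each lay wholly below those of 6 genes. At the other end, 6 genes had intervals wholly below that of TGFBR1. TGFBI was more negative than all but 1.76% of gene rows, LTBP2 than all but 2.47% and TGFB1 than all but 3.69%, whereas 18.2% of gene rows were more negative than TGFBR1.

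**Figure D3:**
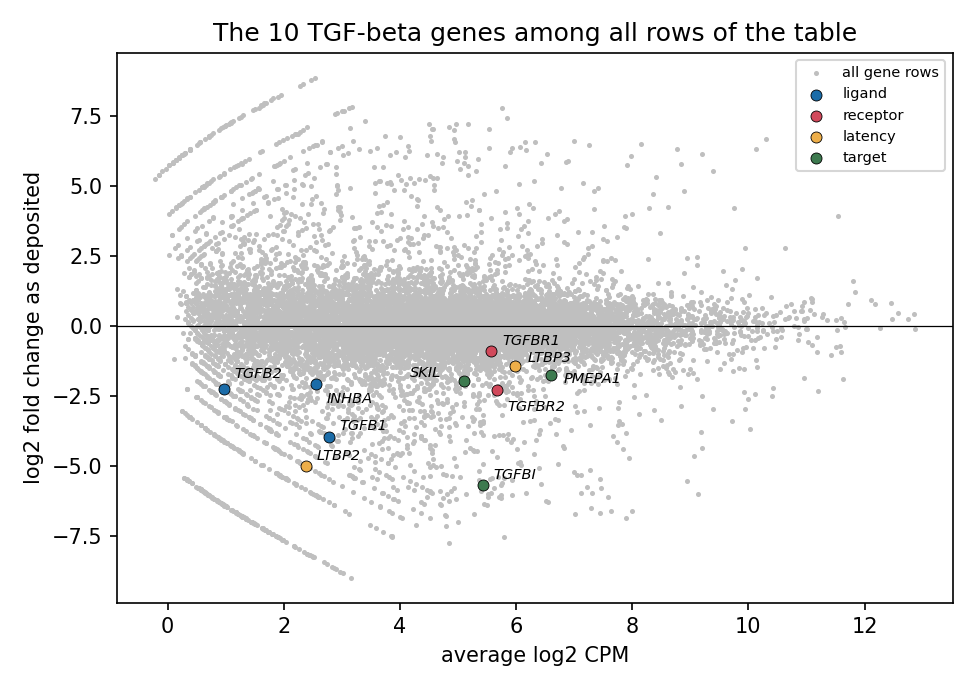
Log2 fold change as deposited against average log2 CPM for all gene rows (grey) and the 10 genes (coloured by role). The 10 lie below 0 at averages between 0.98 log2 CPM for TGFB2 and 6.60 for PMEPA1; the curved rows of grey points at low averages are genes with few or no reads in 1 group.

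The 10 genes lie on 9 chromosomes, with TGFBR2 and SKIL on different arms of chromosome 3. For each gene the 20 nearest measured genes, 10 on each side by start position, had median log2 fold changes between -0.60 around TGFBI and 0.27 around TGFBR2. In 9 of the 10 the gene itself was lower than its neighbours' median by more than 1 on the log2 scale, the exception being TGFBR1 at -0.90 beside a median of -0.36. All 10 were chosen with earlier results of these data known, so such gaps were likely and are no test of the loci. Around TGFBI, 13 of the 20 neighbours were called lower and 1 higher, against 26.4% and 24.5% of all gene rows. Counts differed between genes, with 9 lower and 3 higher around TGFBR1 and 2 lower and 6 higher around TGFBR2. Some genes that overlap exons of the 10 on the opposite strand also had a row. HNRNPUL1, beside TGFB1, had a log2 fold change of -0.31 (edgeR FDR 0.0484) in the authors' deposited table. NKILA, opposite PMEPA1, averaged 1.42 CPM and had a log2 fold change of -1.50 (edgeR FDR 0.131) in the authors' deposited table.

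**Figure D4:**
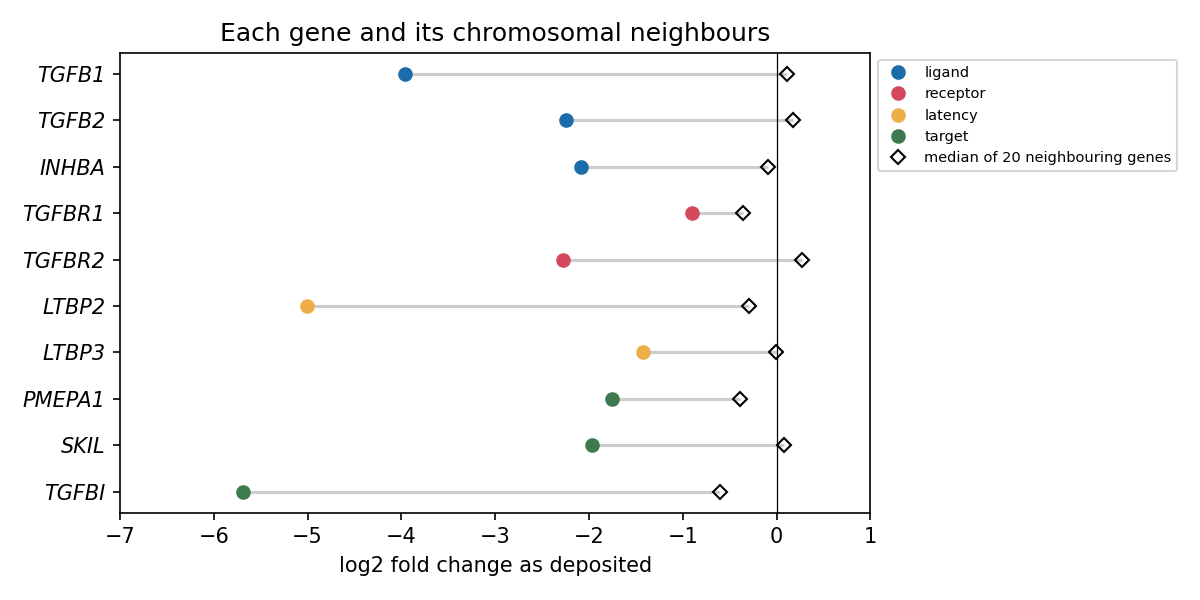
Log2 fold change of each gene (circles, coloured by role) and the median of its 20 neighbouring measured genes on the same chromosome (open diamonds). The diamonds stay between -0.60 and 0.27 while the circles reach -5.69.

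The rest of the pathway was less uniform. Of 83 further genes listed by role, 65 had a row; 36 were lower, 14 higher and 15 did not pass, with a median log2 fold change of -0.88. Centred on the spike-ins, 46 were lower and 11 higher, and over all gene rows 6564 were lower and 1423 higher, against 3318 and 3080 as deposited. Of the other ligands only GDF11 had a row, with a log2 fold change of -0.07 (edgeR FDR 0.844) in the authors' deposited table, and -0.64 (FDR 0.0356) when centred on the spike-ins.

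Of 7 other receptors and coreceptors, 4 were higher (57.1%, against 24.5% of all gene rows), 2 lower (28.6%, against 26.4%) and 1 did not pass. TGFBR3, the coreceptor betaglycan that presents TGF-beta to TGFBR2, was 3.46-fold higher per the authors' deposited table (edgeR FDR 3.11e-06), opposite in sign to both signalling receptors. ACVR2B, an activin type II receptor, was 4.34-fold higher (edgeR FDR 3.13e-05) and BAMBI, a decoy receptor without a kinase domain, 2.48-fold higher (edgeR FDR 5.82e-05) in the authors' deposited table. ENG, the coreceptor endoglin, was 2.30-fold lower per the authors' deposited table (edgeR FDR 6.60e-05).

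Of 8 other latency proteins and ligand traps, 5 were lower (62.5%, against 26.4% of all gene rows), 2 higher (25.0%, against 24.5%) and 1 did not pass. FST, which encodes the activin trap follistatin, was 18.3-fold lower per the authors' deposited table (edgeR FDR 3.48e-07), alongside the lower INHBA. FSTL3, a related trap, was 3.73-fold lower (edgeR FDR 3.83e-06), and FBN1, the microfibril protein to which LTBPs attach, 4.65-fold lower (edgeR FDR 5.32e-07), both in the authors' deposited table. ITGB8, the beta subunit of an integrin that activates latent TGF-beta, was 11.0-fold higher per the authors' deposited table (edgeR FDR 3.47e-10).

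Of 19 SMADs and their regulators, 7 were lower (36.8%, against 26.4% of all gene rows), 4 higher (21.1%, against 24.5%) and 8 did not pass. Centred on the spike-ins, 11 of the 19 were lower and 1 higher, where 52.3% of all gene rows were lower and 11.3% higher. With 4 denominator degrees of freedom, 2 of the 19 were lower and 1 higher, where 17.3% of all gene rows were lower and 15.6% higher. SMAD3 was 3.92-fold lower per the authors' deposited table (edgeR FDR 7.09e-08, log2 -1.97), with implied levels of 38.1 CPM in the numerator group and 149.2 CPM in the denominator group. SMAD2 was 1.32-fold higher as deposited by the authors (edgeR FDR 0.0243, log2 0.40), but this turned to -0.17 with an FDR of 0.282 when centred on the spike-ins. SMAD4 had a log2 fold change of 0.34 (edgeR FDR 0.197) in the authors' deposited table, and -0.23 when centred on the spike-ins. SMAD7, the inhibitory SMAD induced by TGF-beta, was 3.77-fold lower per the authors' deposited table (edgeR FDR 0.00529), with an average of 3.10 CPM and an FDR of 0.0543 with 4 denominator degrees of freedom.

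Among the ubiquitin ligases of the pathway, NEDD4L, which acts on activated SMAD2 and SMAD3, was 7.22-fold higher per the authors' deposited table (edgeR FDR 4.66e-10). SMURF2 was 4.82-fold lower (edgeR FDR 0.000344) in the authors' deposited table. RNF111, which degrades SKIL and SMAD7 proteins, was 1.91-fold higher per the authors' deposited table (edgeR FDR 0.00418), which no longer passed when centred on the spike-ins (FDR 0.189) or with 4 denominator degrees of freedom (FDR 0.05001).

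The other targets were mostly lower. Of 30, 22 were lower (73.3%, against 26.4% of all gene rows), 4 higher (13.3%, against 24.5%) and 4 did not pass. The median log2 fold change of the 30 was -2.25, or -2.07 without the 3 genes with no reads in 1 group. CCN2, listed under its older symbol CTGF, was 4.20-fold lower per the authors' deposited table (edgeR FDR 0.00112). ANGPTL4 was 116.9-fold lower (edgeR FDR 9.55e-10), the fibrillar collagen gene COL5A1 98.0-fold lower (edgeR FDR 6.56e-10) and the actin-binding tropomyosin gene TPM1 8.06-fold lower (edgeR FDR 5.85e-10), all in the authors' deposited table. Many of these targets also have other inducers.

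The 4 higher targets were NEDD9, SNAI2, TNS1 and NOX4, the last 3 named after their values were seen. NEDD9, a scaffold protein of adhesion signalling, was 28.1-fold higher per the authors' deposited table (edgeR FDR 1.24e-10), with implied levels of 97.7 CPM in the numerator group and 3.48 CPM in the denominator group. SNAI2, a neural crest transcription factor that melanocytes also express, was 13.4-fold higher (edgeR FDR 3.00e-09) and TNS1 25.8-fold higher (edgeR FDR 3.97e-07) in the authors' deposited table. NOX4 was higher with no reads in 1 group and averaged 1.14 CPM. PTHLH (average 5.30 CPM) and ACTA2 (1.45 CPM) were lower with no reads in 1 group, so they are given no fold.

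**Figure D5:**
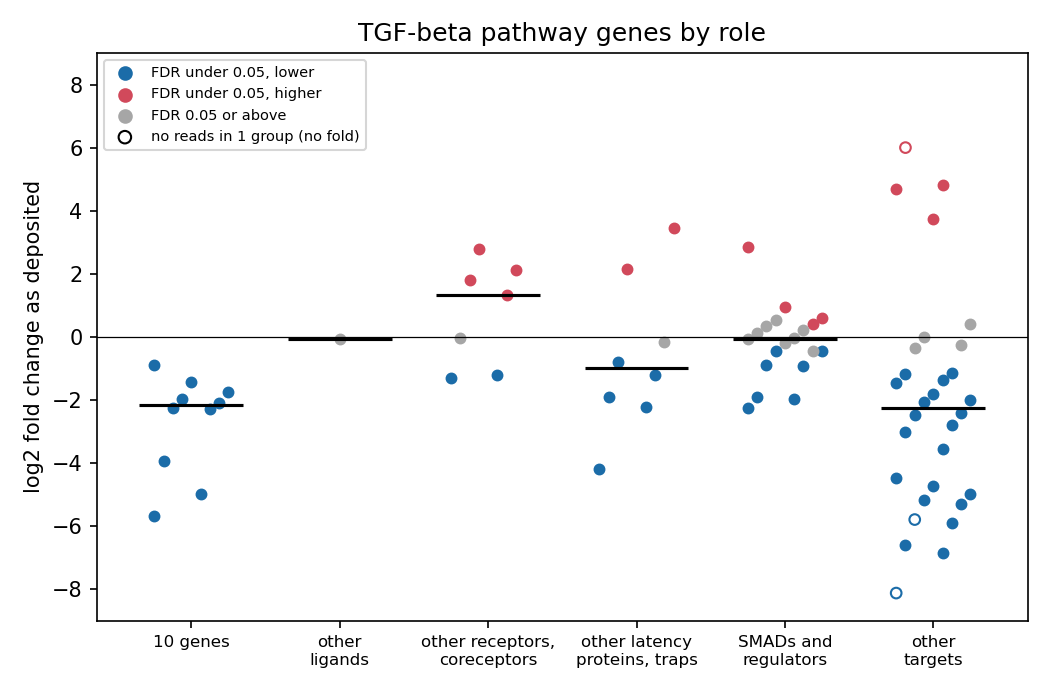
Log2 fold change as deposited for the 10 genes and for the 65 other measured pathway genes by role; black bars are medians, colours show the call at an FDR of 0.05, and open circles are genes with no reads in 1 group. The 10 genes (median -2.17) and the other targets (median -2.25) lie mostly below 0, while the other receptors and coreceptors have a median of 1.31.

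Markers of the labelled cell type and of others moved in the same comparison. All 8 melanocytic markers (among them SOX10, MITF, PMEL and TYR) were higher, with a summed implied level of 7665 CPM in the numerator group and 116.2 CPM in the denominator group, and MITF itself was 18.6-fold higher per the authors' deposited table (edgeR FDR 5.41e-11). Of 8 fibroblast markers 5 had a row: POSTN, COL1A1, COL1A2 and COL3A1 were lower and LUM higher, with sums of 10.8 CPM in the numerator group and 377.4 CPM in the denominator group. The endothelial markers CDH5 and PECAM1 were lower, summing to 1.49 CPM in the numerator group and 10.1 CPM in the denominator group. CD68 was the 1 leukocyte marker of 4 with a row and was higher, at 11.5 CPM in the numerator group and 5.93 CPM in the denominator group. The keratinocyte markers KRT15 and TP63 were lower, and neither had reads in 1 of the groups. The other markers of these lists, among them DCN, THY1, PTPRC and KRT14, were not analysed here. The part of these shifts in the lower TGF-beta genes was not tested. AXIN2, a feedback target of beta-catenin, had a log2 fold change of 0.65 (edgeR FDR 0.23) in the authors' deposited table.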

How the data were processed

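RNA of 6 IGR37 libraries (500 ng input per library, 3'-end kit) was processed with STAR and edgeR on hg38, per the submitters' processing notes; their versions, the counter, its annotation and any low-count filter: not given in the sources used here. Each row has, per the file headers, a log2 fold change with its linear fold ratio, an average log2 CPM, a p-value with its FDR, and the F score of the test. The authors' deposited file holds no counts per library, so depth is unknown and no new fit was made.

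The denominator degrees of freedom were solved from F and p: 14.03 in 12052 rows, and 12.03 in 206 gene rows, taken as no reads in 1 group. A standard error was derived as the size of the log2 fold change over the square root of F, and 95% intervals from the t distribution. Both are approximate, and the degrees of freedom borrow spread across genes. Spike-in rows (59) were left out of gene counts, and 19 rows whose symbol had become a date were kept but not named. The derivation was also run on simulated data drawn from the same F distribution that it inverts. That run cannot show whether the derived errors hold for the authors' edgeR fit. Positions are from GENCODE 44 (hg38), matched by symbol for 11611 gene rows, and promoter windows from RefSeq (GRCh38.p14). Genes named by rule are the 10, the 4 smallest p-values per role of the pathway list, SMAD2, SMAD3, SMAD4, SMAD7, CCN2, CTNNB1, MITF and AXIN2; cell type markers and genes overlapping the 10 are also named, SNAI2, TNS1, NOX4, PTHLH and ACTA2 were named after their values were seen, and some results are not reported here. Likeness of pattern to other genes cannot be measured with 1 comparison. Members and lists were chosen with earlier results of these data known. Python 3.11.15 with pandas 2.3.3 and scipy 1.17.1 was used.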

Additional observations from a re-analysis of the deposited data

How the results depend on the processing

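Under 8 alternatives the 10 genes gave 79 values, of which 73 kept their call and 6 lost it. Some of the 73 were fixed in advance. Centring on the spike-ins only makes these negative values more negative. Leaving out genes with no reads in 1 group kept the deposited FDR of all 10. No sign of the 10 could change under any of the 8. The spike-in centring moves values down, and the other centring takes off only the median of all gene rows, -0.01. TGFB2 lost its call with 4 denominator degrees of freedom, at an FDR under 0.01 and under Bonferroni adjustment. TGFBR1 lost its call at the 2-fold minimum and under Bonferroni, and INHBA under Bonferroni. TGFB2 also fell below the minimum average of 1 log2 CPM. Centred on the spike-ins the median of the 10 was -2.73, against -0.58 over all gene rows, with all 10 called. Gene rows called lower and higher numbered 2175 and 1965 with 4 degrees of freedom, 6564 and 1423 centred on the spike-ins (17.8% of calls higher, against 48.1% as deposited), 1963 and 1669 with a 2-fold minimum, and 896 and 747 under Bonferroni. Under Bonferroni the pathway list of 65 measured genes had 19 lower and 6 higher, where 7.13% of all gene rows were lower and 5.95% higher. Searching only the gene's strand left TGACTCA with 0 genes, CTTTGTT with 1, TCATGTG with 0 and GGAATG with 1. No paired analysis was possible because the deposited table holds no values per library, and for the same reason no replicate could be left out. Depth per library is unknown, and averages of a few CPM limit what can be said of TGFB2 (1.97 CPM), SMAD7 (3.10 CPM) and NOX4 (1.14 CPM), among others.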
